A study of Schizosaccharomyces pombe with 4 samples.

Results

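The 3 centromeres of Schizosaccharomyces pombe were examined for newly incorporated histone H3. Their probes were taken by position on a tiling array of 60-mers spaced every 300 bp: 3750000 to 3790000 on chromosome I, 1600000 to 1650000 on chromosome II and 1070000 to 1140000 on chromosome III, in the coordinates of the array. Of 346 such probes 338 were usable, out of 41020 usable probes on the whole array, with 122 at centromere I, 99 at centromere II and 117 at centromere III. The rule uses positions and no measured value, although it was written with earlier results of these data known. Inside these intervals the annotation of assembly ASM294v3, once matched to the array, placed clustered tRNA genes at all 3. The match was itself fitted to the probe classes, so their agreement with the repeats of the assembly is no separate check of the label centromere.

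New H3 was read by ChIP-chip. Per the labels, all cells carried cdc25-22 (the growth protocol writes cdc22-25), a temperature-sensitive allele that stops cells at G2/M, and an H3 gene whose HA tag is exchanged for a T7 tag by Cre recombinase. They also carried tetO-ade6+ and TetR-Clr4 under a thiamine-repressible promoter. Cells grown at 26 °C in minimal medium were arrested at 36 °C for 4 h, received 1 µM β-estradiol for 2 h to activate Cre, and were fixed with 1% formaldehyde. H3-T7 chromatin DNA was labelled with Cy5 and whole-cell extract DNA, the input, with Cy3. The 4 groups were wt and clr3-CDx2 cells, each in an OFF and an ON state of tethering, with 1 array per group. In ON cells TetR-Clr4 had been made for 20 generations without thiamine. OFF cells grew with thiamine (5 µg/ml) and with tetracycline (2.5 µg/ml), so the tethering states also differed in medium. The labels do not state what CDx2 changes in clr3 or where tetO-ade6+ sits.

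A fission yeast centromere has a central core in which the variant Cnp1 (CENP-A) takes the place of H3 in many nucleosomes and on which the kinetochore forms. Innermost repeats enclose the core, and outer dg and dh repeats form heterochromatin, in which Clr4 methylates lysine 9 of H3 under guidance from RNA interference. Clr3, a histone deacetylase of the SHREC complex, removes acetyl groups from lysine 14 of H3 there. tRNA genes, transcribed by RNA polymerase III, stand between the core and the outer repeats and act as boundaries. H3-T7 over input reports new H3 per unit of DNA. Total H3 was not measured on these arrays, so little new H3 and little H3 of any age cannot be told apart.

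The borders used below are tRNA genes, so those that enclose the central domains are shown first, from RefSeq assembly ASM294v3 and on the strand of the gene. The outermost pair at each centromere has the same sequence on its left and right side, in inverted orientation, and the sequence of the outermost pair of centromere II is also that of the innermost pair of centromere I. Capitals mark TTCGA, the conserved core of the internal B box promoter element, searched in the genes' own orientation. The left member of each outermost pair and of the innermost pair of centromere II are given.
SPATRNAALA.04, chrI:3765008-3765081, minus strand: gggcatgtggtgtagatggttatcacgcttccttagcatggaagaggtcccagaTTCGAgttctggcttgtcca
SPBTRNAILE.06, chrII:1618293-1618366, plus strand: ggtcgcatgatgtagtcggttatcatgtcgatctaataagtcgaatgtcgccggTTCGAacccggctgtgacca
SPCTRNAASP.06, chrIII:1092437-1092507, plus strand: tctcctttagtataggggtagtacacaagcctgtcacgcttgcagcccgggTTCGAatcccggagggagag
SPBTRNAVAL.06, chrII:1619174-1619256, minus strand: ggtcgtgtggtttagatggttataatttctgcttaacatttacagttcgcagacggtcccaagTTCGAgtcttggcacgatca

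TTCGA occurred in all 12 tRNA genes that bound the domains and in 53 of the 56 tRNA genes placed at or near the centromeres (94.6%). It occurred in 141 of all 171 tRNA genes (82.5%) on their own strand, and 11.5% of 74-base windows of the chromosomes held it on either strand. The match describes the letters and is no measure of transcription. These genes gave 3 zones. The core, as the word is used for these zones, lies between the innermost tRNA genes of a centromere. It spans 5.547 kb at I, 9.903 kb at II and 5.239 kb at III. The arms lie between the innermost and outermost tRNA genes, and core and arms make up a central domain of 12.257, 11.829 and 14.12 kb. The central domains held 104 probes and the flanks outside them 234.

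The DNA of these domains differs from that around it in base composition, as a stretch placed near the lowest probe of centromere II shows. Its 240 bases were read from ASM294v3 around the place matched to that probe, with the first of its longest runs of A and T, each 12 bases, in capitals.
Core of centromere II, chrII:1621971-1622210, plus strand: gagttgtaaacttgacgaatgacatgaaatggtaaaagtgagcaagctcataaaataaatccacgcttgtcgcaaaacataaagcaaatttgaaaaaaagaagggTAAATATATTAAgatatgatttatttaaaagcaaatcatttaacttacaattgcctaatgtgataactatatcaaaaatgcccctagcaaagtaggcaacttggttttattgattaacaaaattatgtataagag

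A and T made up 71.2% of that stretch. They made up 71.7%, 71.8% and 70.1% of the central domains of I, II and III, between 66.6% and 68.0% of the 10 kb on either side, and 63.9% of the chromosomes. The input signal was low there too, with a mean Cy3 signal between -1.02 and -0.61 relative to the array median on the log2 scale.

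Most centromere probes match repeats. Of the 338, 69 had no suffix in their name, 147 had the suffix f and 122 the suffix m, whose meanings the files do not state. Where the probes were placed on the assembly, those without suffix matched a median of 1 place (95.7% a single one), those with f 2 places and those with m 10. Within 13 kb of each centre the placement was fitted to these suffixes, so there the counts are no separate check of it. In the cores of I and III, 9 of 16 and 10 of 13 probes matched another centromere, and in the core of II 23 of 29 matched no other place. In the arms 37 of 46 probes matched one or more further places in their own centromere and none elsewhere. A probe with several matches reports the sum of its places, and such probes are not independent of each other. Probes with f or m are therefore given apart below.

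New H3 was low across all 3 central domains on all 4 arrays. Levels are log2 ratios of ChIP to input, centred on the median of each array. Where 4 values are given together, the OFF arrays come first (wt, then clr3-CDx2) and the ON arrays follow in the same order, with the SD over probes where one is given. The mean level of the 58 core probes was -3.67 (SD 0.35), -3.12 (SD 0.40), -3.32 (SD 0.50) and -3.06 (SD 0.39), which is 12.7-, 8.72-, 9.998- and 8.33-fold below the median. The 46 arm probes averaged -2.92, -2.30, -2.38 and -2.21. The 234 probes outside averaged -0.83 (SD 0.47), -0.73 (SD 0.47), -0.54 (SD 0.52) and -0.62 (SD 0.52). Core, arms and outside thus stood in the same order on every array, with wt OFF lowest in each. These SD values describe probes and are no replicate error.

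**Figure D1:**
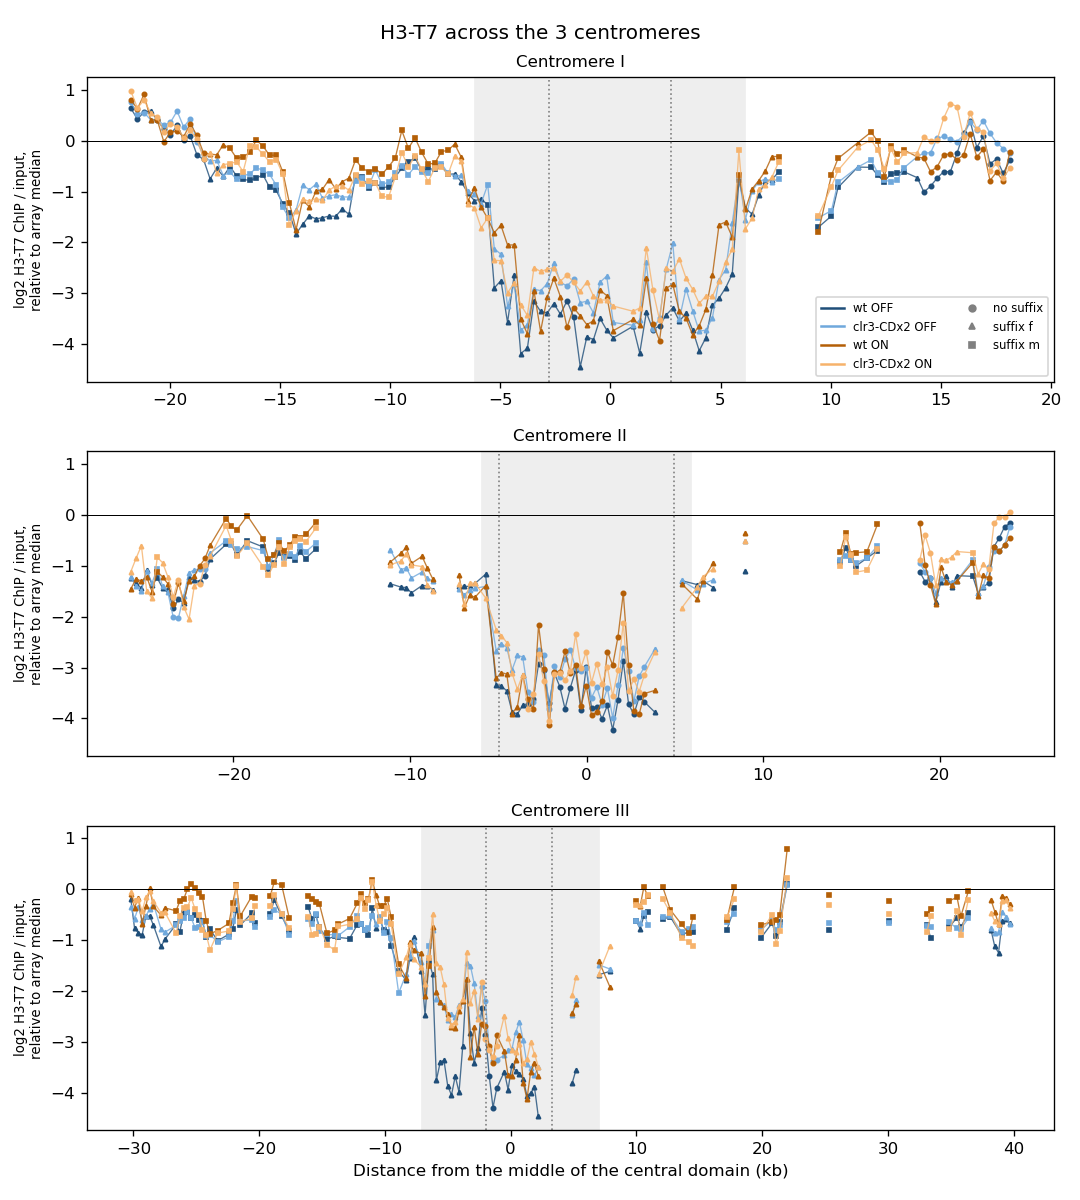
Profiles of H3-T7 across centromeres I, II and III on the 4 arrays, as median-centred log2 ratio of ChIP to input (y) against distance from the middle of the central domain in kb (x). Grey shading is the central domain between the outermost tRNA genes, dotted lines are the innermost tRNA genes, and lines break where probes are over 1 kb apart; levels sit near -3 inside the shading and mostly between -1.5 and 0 outside.

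Counted over the whole intervals, 82.0%, 79.6%, 59.8% and 65.7% of the 338 probes lay at least 1.5-fold below the array median, against 9.99%, 9.41%, 11.8% and 11.7% of all probes. At least 4-fold below were 27.8%, 27.2%, 26.0% and 26.3%, against 0.585%, 0.517%, 0.4% and 0.349% of all probes. In wt OFF cells each of the 94 probes at least 4-fold below lay in a central domain. Chromosome probes outside the centromeres averaged between -0.03 and 0.01.

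The middle of the intervals was set against their flanks array by array. With the middle taken as the 76 probes within 5 kb of the interval's centre, the middle minus flanks was -2.26, -1.93, -2.25 and -1.98, a mean of -2.10 (SD 0.18 over the 4 arrays) or 4.30-fold. Between the outermost tRNA genes it was -2.51, -2.03, -2.37 and -2.07, with a mean of -2.24 (SD 0.23), and between the innermost ones it averaged -2.32 (SD 0.19). An exact two-sided sign-flip permutation over the 4 arrays gave p = 0.125 for each, the smallest that 4 arrays allow. Started from spot medians in place of processed signals, with the normexp background model, the contrast within 5 kb was 0.13 and that between outermost tRNA genes 0.05, of the opposite sign. Under this setting, which changes the starting signals and the background model together, the median Cy5 signal of the central domain in wt OFF cells was 765 units in place of 268, and Cy3 1360 in place of 3715. Outside the domain Cy5 was 9013 in place of 14054 and Cy3 26921 in place of 32659. Which of the changes turned the sign was not tested. All central-domain spots were flagged well above background, with a median Cy5 signal of 268 to 544 against a local background of 53 to 62. The lowest Cy5 signals there were 74, 89, 81 and 146 on the 4 arrays, so the levels of the deepest probes rest on weak signals.

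Each centromere showed the low domain by itself. In the central domain of centromere I the level was -3.25, -2.80, -2.85 and -2.66, and outside it -0.66, -0.48, -0.36 and -0.41. In centromere II these were -3.43, -2.99, -3.14 and -2.99 inside, and -1.13, -1.06, -0.94 and -0.93 outside. In centromere III they were -3.35, -2.49, -2.75 and -2.42 inside, and -0.76, -0.72, -0.39 and -0.57 outside. Over the whole domain and outside it, centromere II had the lowest mean on every array, but its domain holds 29 core and 3 arm probes, against 16 and 23 at I and 13 and 20 at III. Among the cores centromere III was lowest on every array, at -3.87, -3.23, -3.44 and -3.15, and the core of II stood at -3.58, -3.12, -3.26 and -3.10. The 3 arm probes of II averaged -1.94, -1.79, -1.98 and -1.91, above the arms of I and III on every array. The distance from the lowest to the highest centromere inside the domain was 0.17, 0.51, 0.39 and 0.56, less than the SD over probes of 0.68 to 0.81, and centromeres share repeat probes.

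**Figure D2:**
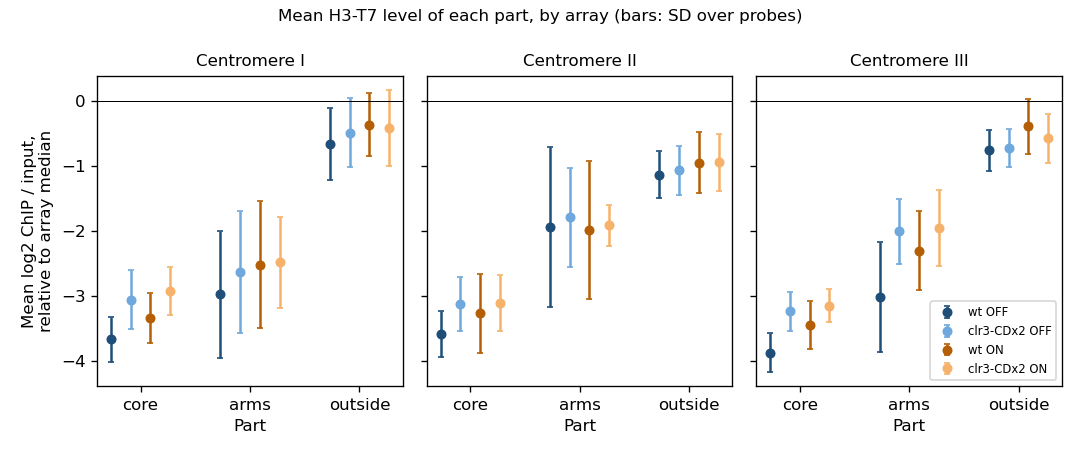
Mean H3-T7 level of core, arms and outside probes at each centromere, as median-centred log2 ratio of ChIP to input (y), 1 point per array. Bars are the SD over probes, and the arms of centromere II hold 3 probes; the wt OFF point (dark blue) is the lowest of the core in all 3 centromeres.

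Single probes show how deep the domain went. The lowest probe of centromere II by the mean of the arrays, at 1623900, matches 1 place in the assembly where it was placed. The core sequence printed above is centred there, but the placement is less exact than that sequence is long, so the probe may lie outside it. This probe stood at -3.70, -3.82, -4.14 and -4.05. There wt OFF was the highest array, but the Cy5 signals of this probe were 94, 89, 96 and 146 units, so this order rests on weak signals. The lowest of centromere III, at 1102500, was at -4.47, -3.51, -3.68 and -3.49, and that of centromere I, at 3768000, at -4.08, -3.61, -3.79 and -3.43, both with suffix f. On these last probes wt OFF was the lowest array. The highest probe of centromere I, at 3750000, lay next to the placed start of per1, at 0.64, 0.76, 0.81 and 0.98, above the array median on all 4 arrays.

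Probes without suffix and repeat probes were both low in the domain. The 32 probes without suffix in the central domain averaged -3.52, -3.15, -3.23 and -3.09, and the 69 with f averaged -3.34, -2.66, -2.83 and -2.57. Outside the domain the 37 probes without suffix averaged -0.43, -0.23, -0.35 and -0.11, the 78 with f -1.15, -0.99, -0.87 and -0.88, and the 119 with m -0.74, -0.72, -0.37 and -0.60. Pooled over centromeres, the repeat probes outside were below those without suffix on every array, but 25 of the 37 without suffix lie at I and 12 at II. At centromere II alone the 12 stood at -1.04, -1.06, -0.92 and -0.71, and the 22 m probes at -0.82, -0.76, -0.52 and -0.72, above them on 3 of the 4 arrays. By place count, the 38 outside probes with 1 match averaged -0.41, -0.22, -0.32 and -0.10, the 49 with 2 to 3 matches -1.09, -1.004, -0.88 and -0.86, and the 93 with 8 or more -0.74, -0.73, -0.41 and -0.64. The level did not fall steadily with the number of matches.

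Split by dye, the central domain was low in the ChIP channel. Its Cy5 signal averaged -4.35, -3.58, -3.52 and -3.45 on the log2 scale, and its Cy3 signal -1.02, -0.83, -0.61 and -0.76. Outside, the m probes stood at 2.07, 2.22, 2.54 and 1.92 in Cy5 and at 2.80, 2.93, 2.93 and 2.54 in Cy3, so their below-median ratio came from bright spots in both channels.

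**Figure D3:**
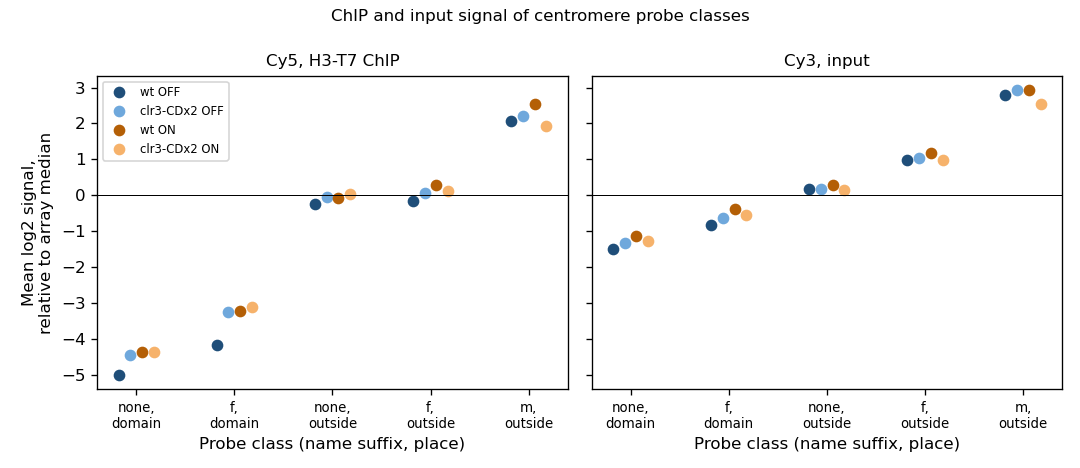
Mean Cy5 (H3-T7 ChIP, left) and Cy3 (input, right) signal of the centromere probe classes, log2 relative to the array median of that channel (y), by name suffix and place (x), 1 point per array. The ChIP signal of probes in the central domain lies 3 to 5 log2 units below the median and their input signal between -1.5 and -0.3, while m probes lie about 2 to 3 units above it in both channels.

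The edges of the low domain lay near the tRNA genes at centromeres I and II and varied more between arrays at III. On the left of centromere II the largest step, from 3 probes to the next 3, fell between 1620300 and 1620900 on all 4 arrays. Its midpoint lay 0.497 kb inside SPBTRNAILE.06, between the placed alanine gene SPBTRNAALA.09 and the valine gene SPBTRNAVAL.06 printed above. The size of the step was 4.25-, 2.24-, 3.07- and 1.92-fold. On the right of centromere II it fell between 1629900 and 1631400 on all 4 arrays, 1.282 kb inside SPBTRNAILE.07, at 5.26-, 2.94-, 4.57- and 3.06-fold. At centromere I the steps lay 0.712 to 1.912 kb inside the left alanine gene SPATRNAALA.04 and 0.445 to 1.645 kb inside the right one. At centromere III the left step lay 1.003 kb inside SPCTRNAASP.06 in wt OFF cells and 5.203 kb inside it in clr3-CDx2 OFF cells, in wt ON cells it lay 2.147 kb outside it, and in clr3-CDx2 ON cells 1.603 kb inside. The right step of centromere III lay 0.967, 3.517 and 2.017 kb inside SPCTRNAASP.07 on the wt OFF, clr3-CDx2 OFF and clr3-CDx2 ON arrays, and 1.883 kb outside it on wt ON. Placement of the tRNA genes is good to about 0.4 kb and DNA fragments were about 1 kb long, so shifts of this order are not resolved.

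Runs of low probes were measured with a running median over 5 probes. The run at least 4-fold below the median was 9.06 kb at centromere II on all 4 arrays, from 1620900 to 1629959. It was 10.86, 10.56, 9.36 and 10.86 kb at I, and 11.46, 7.56, 11.46 and 9.96 kb at III. At 1.5-fold the run reached into the outer repeats and was longer in OFF than in ON cells at each centromere. It measured 22.86, 21.06, 14.16 and 16.26 kb at I, 42.36, 50.76, 35.46 and 33.96 kb at II, and 25.86, 28.26, 16.86 and 17.76 kb at III. At 2-fold it was 13.26, 11.76, 12.06 and 12.66 kb at I, 20.16, 17.76, 15.66 and 16.56 kb at II, and 17.46, 16.86, 16.86 and 16.86 kb at III, so the arrays were closer to each other at this depth.

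Most tRNA genes in the flanks or just beyond the intervals were below the array median. The outer clusters of centromere II, 12 genes on the left and 9 on the right, averaged -1.42, -1.42, -1.37 and -1.11 (15 probes) and -1.35, -1.29, -1.29 and -0.87 (10 probes). Of the 4 arrays clr3-CDx2 ON was highest at both clusters. The 8 genes left of centromere III averaged -0.90, -0.68, -0.84 and -0.63 (20 probes), and of these genes only SPCTRNALYS.10 lies inside the interval. In the left cluster of centromere II, SPBTRNAASN.01, SPBTRNAMET.05, SPBTRNATYR.02 and SPBTRNALEU.06 lie outside the interval. Not every tRNA gene was low: SPATRNAPHE.02, the phenylalanine gene beside per1, stood at -0.09, 0.21, 0.22 and 0.12 (2 probes).

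Several protein-coding genes at the edges were near the array median. per1 averaged 0.38, 0.45, 0.39 and 0.46 (7 probes). rad50, for a subunit of the Mre11 DNA repair complex, averaged -0.15, -0.11, -0.24 and -0.10 (14 probes), and sdh1, for a subunit of succinate dehydrogenase, 0.19, 0.11, 0.27 and 0.19 (7 probes). rpb1, for the largest subunit of RNA polymerase II, averaged -0.25, -0.12, -0.27 and -0.12 (19 probes). The mean of per1, rad50, sdh1 or rpb1 was thus not 1.5-fold below the median on any array. Within rpb1 the level was uneven. Its stretch from 1593000 to 1594999 (7 probes) averaged -0.61, -0.46, -0.66 and -0.49, at least 1.5-fold below the median on both wt arrays. The nearest gene left of centromere III, meu27, averaged -0.16, -0.42, -0.61 and -0.62 (9 probes), at least 1.5-fold below the median on both ON arrays. At the right edge of centromere II yox1 stood at -0.20, -0.42, -0.52 and 0.01 (2 probes), and rec6 at -0.05, -0.03, -0.43 and -0.14 (4 probes). At the right edge of centromere I emc5 (3 probes), for a subunit of the endoplasmic reticulum membrane protein complex, stood at -0.65, 0.06, -0.35 and 0.40, with both clr3-CDx2 arrays above both wt arrays. The 2 kb stretch there, 3786000 to 3787999 on chromosome I, held 7 single-copy probes averaging -0.56, -0.03, -0.38 and 0.29.

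The comparison of genotypes asks whether an altered Clr3 changes new H3 at centromeres. In the processed signals it was higher in the central domains of clr3-CDx2 cells, more so in the OFF state, and the flanks differed less. With normexp the central-domain difference was -0.12 in OFF and 0.15 in ON, so neither the OFF direction nor the order of the states held. In the OFF state clr3-CDx2 minus wt was 0.58 over the central domain, where 48 of 104 probes were at least 1.5-fold higher and 0 lower, and 0.09 outside. In the ON state the difference was 0.22 in the central domain, with 27 probes higher and 7 lower, and -0.08 outside. Over all 338 probes 57 were higher and 0 lower in OFF, against 3.35% and 1.16% of all probes, and 36 higher and 13 lower in ON, against 4.19% and 3.49%. In both states at once, 17 were at least 1.5-fold higher and 0 lower, against 1.08% and 0.0951% of all probes. Averaged over states the central-domain difference was 0.40, with both clr3-CDx2 arrays above both wt arrays. An exact two-sided permutation of the array means gave p = 0.333, the smallest that 2 against 2 arrays allow. In the flanks it was 0.006 (exact permutation p = 1) and the groups overlapped.

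The size of the genotype difference varied along the domain. In the arms of centromere III, 20 probes, it was 1.01 in OFF, with 16 probes at least 1.5-fold higher, and 0.34 in ON, with 5 higher. In the arms of centromere I it was 0.34 in OFF and 0.03 in ON. In the cores it was 0.61, 0.46 and 0.63 at I, II and III in OFF, and 0.41, 0.16 and 0.30 in ON. Each of these means was above 0, and the ON values were below the OFF values. The difference of the 2 differences over the central domain was -0.35, which cannot be tested with 1 array per group.

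By contrast the 119 m probes in the flanks were lower in clr3-CDx2 ON than in wt ON. The difference was -0.23, with 8 of 119 probes above 0, against 20540 of all 41020 probes. At least 1.5-fold lower were 4 of the 119, a share no higher than the 3.49% of all probes. In the OFF state the difference was 0.02, with 70 of the 119 above 0, against 20645 of all 41020 probes. Over all 122 m probes of the intervals the ON difference was made of -0.60 in Cy5 and -0.38 in Cy3, so the input moved with it, and its part in the result was not tested.

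**Figure D4:**
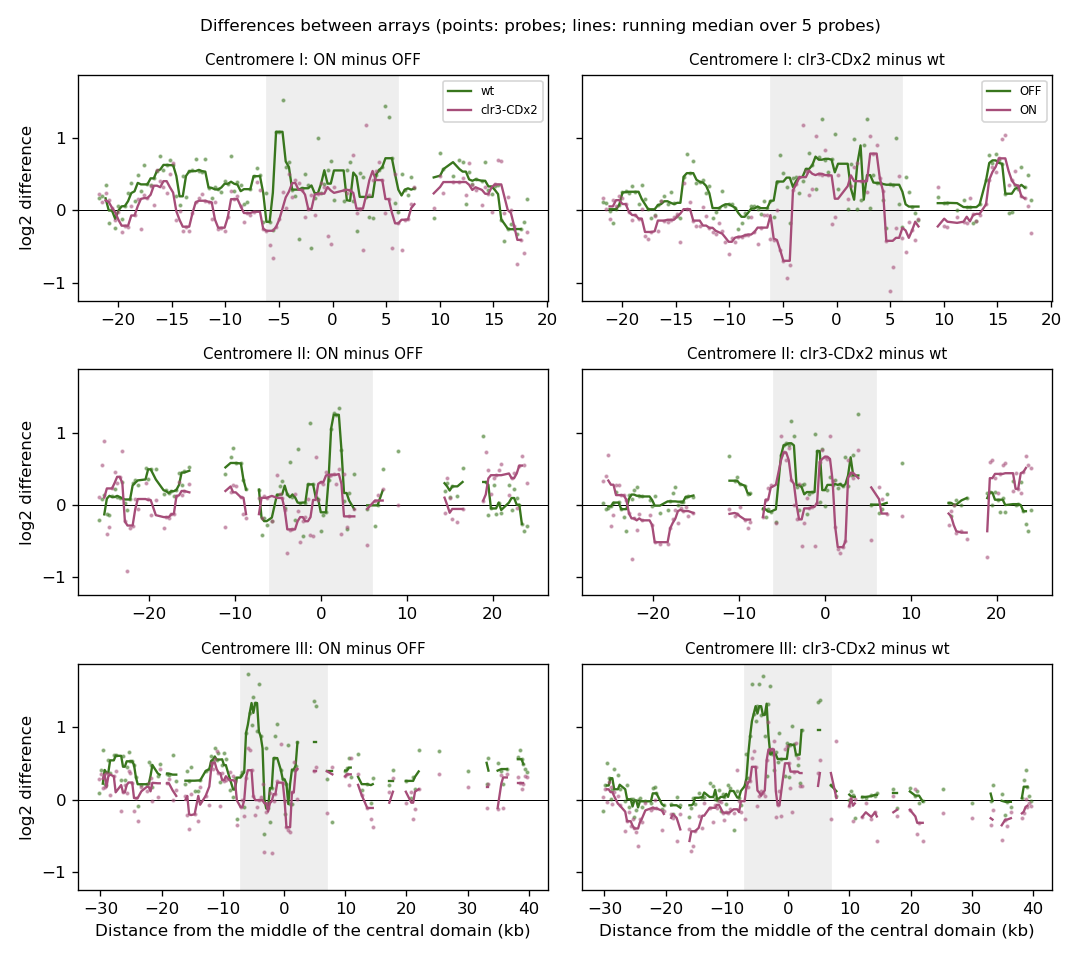
Differences in log2 ChIP over input between arrays at each centromere (y) against distance from the middle of the central domain in kb (x), for ON minus OFF (left) and clr3-CDx2 minus wt (right). Points are probes, lines a running median over 5 neighbouring probes and grey shading the central domain; the largest stretch is left of the middle of centromere III, where clr3-CDx2 OFF and wt ON both exceed wt OFF, the array both differences share.

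The comparison of tethering states asks whether made TetR-Clr4, together with its medium, changes new H3 at centromeres, where Clr4 acts in any case. In wt cells ON minus OFF was 0.33 over the 338 probes, with 278 above 0, against 22045 of all 41020 probes. At least 1.5-fold higher were 68 of the 338 and lower 0, against 7.79% and 4.8% of all probes. In clr3-CDx2 cells it was 0.10, with 16 higher and 6 lower, against 5.86% and 4.72% of all probes, which is at or under the background. In both genotypes at once, 3 of the 338 were at least 1.5-fold higher and 0 lower, against 2.02% and 1.03% of all probes. In the central domain the differences were 0.43 in wt and 0.07 in clr3-CDx2 cells, and outside 0.29 and 0.12. With normexp the central-domain differences were -0.29 and -0.0254, of the opposite sign. In the arms of centromere III they were 0.71 and 0.05. Averaged over genotypes, the flank difference was 0.20 without overlap of the groups (exact permutation p = 0.333), and the central-domain difference 0.25 with overlap (p = 0.667). The file headers record that Cy5 was detrended on the OFF arrays and not on the ON arrays, so this step and tethering cannot be told apart in the processed signals. From background-subtracted signals without detrending, the central-domain differences were 0.45 and 0.09.

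The m probes of the flanks had a higher mean ratio in the ON state in both genotypes, with opposite shifts of the channels. ON minus OFF was 0.37 in wt, above 0 for 116 of 119 probes, with 0.48 in Cy5 and 0.13 in Cy3. It was 0.12 in clr3-CDx2, above 0 for 79, with -0.29 in Cy5 and -0.39 in Cy3, so there the ChIP signal was lower in ON and the input lower still. Of all 41020 probes, 22045 were above 0 in wt and 22089 in clr3-CDx2. The 37 flank probes without suffix had mean differences of 0.07 and 0.11. In the wt pair the repeat probes thus carried most of the flank difference.

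Across the pairs the wt OFF array stood apart in the central domain. It was the lowest of the 4 arrays at 73 of 104 central-domain probes (70.2%), against 25.9% of all probes. Outside the domain it was lowest at 113 of 234 (48.3%), and wt ON was highest at 150 (64.1%), against 29.0% of all probes. Both the wt pair and the OFF pair contain wt OFF, and the pairs without it gave the smaller central-domain differences of 0.07 and 0.22. With arrays scaled to equal spread, the central-domain levels were -3.81, -3.01, -2.61 and -2.40, with wt OFF still lowest. With normexp they were -0.67, -0.79, -0.96 and -0.82, with wt OFF highest.

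Single probes were tested with limma, fitting tethering and genotype together to all 41020 probes with Benjamini-Hochberg adjustment. The fit has 1 residual degree of freedom per probe and assumes that the effects add. Its SE and p-values rest mostly on a spread pooled over all probes (74.8 prior degrees of freedom). They are no replicate error of a single probe. The median residual SD was 0.24 in the central domain, 0.15 outside and 0.13 over all probes. For genotype 25 of the 338 probes rose and 0 fell, against 1.44% and 0.146% of all probes, and 23 of the 25 lay in a central domain (11 in cores, 12 in arms). The median effect was 0.43 in the central domain and -0.02 outside, beside -0.000788 over all probes. For tethering 27 rose and 1 fell, against 4.26% and 2.65% of all probes, with 21 of the risers in a central domain (7 in cores, 14 in arms). Its median was 0.23 in the central domain and 0.21 outside, beside 0.03 over all probes. wt OFF was the lowest array at 21 of the genotype risers and 24 of the tethering risers. It is on the low side of both effects, so choosing risers itself favours this. The same share over all risers of the array was not computed. With either factor fitted alone, 0 of the 338 probes passed for it with limma, and 36 (genotype) and 63 (tethering) rose at an unadjusted p under 0.05. With normexp 0 passed as well, with 9 and 18 at an unadjusted p under 0.05.

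The strongest of these lay left of the core of centromere III. The probe at 1094400 stood at -3.76, -2.16, -2.03 and -1.45. wt OFF was far below the other 3 arrays, and limma gave effects of 1.22 (SE 0.20, adjusted p = 1.82e-05) for tethering and 1.09 (SE 0.20, adjusted p = 0.000192) for genotype. Its neighbour at 1094700 stood at -3.41, -2.22, -2.21 and -1.53, the same order of low and high arrays. At 1096200 the levels were -3.99, -2.28, -2.39 and -2.29, so the 3 other arrays lay together above wt OFF.

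The probe at 1097100 differed. It stood at -2.83, -1.50, -3.30 and -2.23, both clr3-CDx2 arrays above both wt arrays, with a genotype effect of 1.20 (SE 0.19, limma adjusted p = 1.29e-05). It was also the probe that fell with tethering, by 0.60 (limma adjusted p = 0.0429). The probe at 1097400 stood at -3.41, -1.85, -2.70 and -2.01, with a genotype effect of 1.13 (limma adjusted p = 7.89e-05). Both lie inside the left arm of centromere III, between the leucine gene SPCTRNALEU.12 and the glutamate gene SPCTRNAGLU.10.

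On the right side of centromere III the probes at 1105200 and 1105500 stood at -3.81, -2.47, -2.44 and -2.08, and at -3.55, -2.18, -2.26 and -1.72. They are the probes between the core and the tRNA genes at the right border, and each matches 2 places in the assembly. The array lowest at both was wt OFF. In the arms of III 15 of 20 probes matched further places in their own centromere alone, so these probes need not be separate from those on the left.

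In centromere II the probe at 1629900, the last before the right step, stood at -3.88, -2.63, -3.45 and -2.69. The clr3-CDx2 arrays were together above the wt arrays, and the genotype effect was 1.01 (SE 0.20, limma adjusted p = 0.000396). The single-copy probe at 1628100 stood at -2.88, -2.62, -1.54 and -2.12, with both ON arrays above both OFF arrays and a tethering effect of 0.92 (SE 0.20, limma adjusted p = 0.0014). At 1627500, also single-copy, the levels were -4.23, -3.99, -2.95 and -3.56 (tethering effect 0.85, limma adjusted p = 0.0033).

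In centromere I the probe at 3767100 stood at -3.57, -3.25, -2.05 and -2.99. wt ON was the high array there, and also at 3776700, with -3.09, -2.73, -1.65 and -2.76. These f probes lie in the left and right arm, and each matches 2 places. In the arms of I 22 of 23 probes matched further places in their own centromere alone, so these probes need not be separate observations. At 3768600 the levels were -3.36, -2.95, -3.75 and -2.57, with wt ON lowest and a genotype effect of 0.79 (limma adjusted p = 0.0139).

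Outside the central domains 2 probes rose with genotype, both single-copy and both in the stretch at emc5. The probe at 3787200 stood at -0.61, 0.04, -0.26 and 0.73 (effect 0.82, limma adjusted p = 0.0077), and that at 3786900 at -0.60, 0.09, -0.27 and 0.45 (effect 0.71, limma adjusted p = 0.0343). Both clr3-CDx2 arrays were above both wt arrays at each. Of the 7 probes of this stretch, 6 had clr3-CDx2 above wt in the OFF state and 7 in the ON state, and 5 did not pass. The difference was 0.53 in OFF and 0.67 in ON. The stretch was picked after these values were seen, so its agreement between states is no separate support. Its probes lie 300 bp apart and DNA fragments were about 1 kb long, so they are not separate observations.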

How the data were processed

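H3-T7 ChIP and input DNA of 4 cultures were hybridized to 4 arrays of 1 slide, 1 per group, so no group has replicates. Per the file headers, the authors used Agilent Feature Extraction 12.0.3.1 (2-colour). The deposited intensity columns hold processed signals, background-subtracted, detrended and scaled by a linear dye factor within each array. Per the file headers, both channels were detrended on the OFF arrays and Cy3 alone on the ON arrays. The deposited log10 ratio of red over green was used as a check. Flags of 0 or 1, per the file headers, marked outlier spots, of which 531 were left out. The deposited series matrix holds the log2 ratio of the processed signals (Cy5 to Cy3, equal for 100% of spots within 1e-6, column medians 0.085, 0.048, 0.048 and 0.071, not centred, ChIP over input).

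Each probe's value was the log2 ratio of processed Cy5 to Cy3, less the median of its array (R 4.3.3, Python 3.11.15). Main effects were fitted with limma 3.58.1 (lmFit, eBayes). The code was also run on simulated data with additive effects and the same spread at every probe. That run cannot test the additive assumption or the unequal spread of the real probes. Spot means were not among the columns analysed here, so normexp (offset 50) used spot medians and local background. The sources used name no genome build for the array. Within 13 kb of each centre, ASM294v3 was placed on the array by matching name suffixes to the copy number of its 40-mers (r = 0.77 to 0.92), and beyond by matching input signal to GC content. Array positions are the array's own, and printed sequences carry ASM294v3 coordinates.

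The intervals, zones and lists were chosen with earlier results of these data known, and the outermost tRNA genes as limits, the 4-fold run and the pairs without wt OFF were added after the values were seen. Named probes are the 3 lowest and 3 highest of each centromere, the 5 smallest adjusted p per effect and direction, and the 5 largest differences of each pair. Named genes are those inside the intervals and the nearest ones outside. Probes of the stretch at emc5 were named after their values were seen. With 1 array per group, spreads are SD over probes, and the number of arrays limits the precision.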

Additional observations from a re-analysis of the deposited data

Results flagged for a closer look

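In the flanks, clr3-CDx2 minus wt had opposite signs in the OFF and the ON state, and this change of sign was not tested, since each state has 1 array per genotype. In the left flanks of all 3 centromeres together (beyond 5 kb from the centre) the difference was 0.19 in OFF and -0.0891 in ON. Outside the outermost tRNA genes it was 0.0935 and -0.0814. At centromere I it was 0.136 and -0.152 in the left flank and 0.174 and -0.0499 outside the tRNA genes. At centromere II it was 0.0802 and -0.0919 in the left flank. At centromere III it was 0.287 and -0.0449 in the left flank, 0.0465 and -0.207 in the right flank, and 0.0377 and -0.183 outside the tRNA genes. That left flank, of 74 probes, takes in central-domain probes, since the centre of the interval is not that of the domain. The 53 probes left of the outermost tRNA genes there had 0.0326 and -0.189. Pooled over centromeres, the 147 such probes had 0.0825 and -0.149. These stretches overlap, and all values are under 1.5-fold. In the same flanks the Cy3 input of m probes differed by -0.39 between clr3-CDx2 ON and wt ON, and its part in the sign was not tested.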

How the results depend on the processing

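No paired analysis was possible by replicate number because each group is 1 array. The limma fit has each factor beside the other as a term, and with the term alone its calls were lost (below). With normexp the mean levels over the intervals were -0.91, -0.85, -0.79 and -0.86 (OFF in wt, then in clr3-CDx2, and ON in the same order), ON minus OFF in wt was 0.12, clr3-CDx2 minus wt in OFF 0.0644, and middle minus flanks 0.13 (0.0491 between outermost tRNA genes), a reversal. With arrays at equal median absolute deviation wt OFF stood at -1.83, and ON minus OFF was 0.69 in wt and 0.36 in clr3-CDx2. Probes without suffix alone gave levels of -1.86, -1.58, -1.69 and -1.49, ON minus OFF in wt of 0.17, clr3-CDx2 minus wt in ON of 0.19, middle minus flanks of -2.69 and distances between the lowest and highest centromere of 2.82, 2.52, 2.38 and 2.61, since centromere III keeps 5 such probes, all in the domain. The f and m probes alone gave middle minus flanks of -1.89, a middle of 7 kb -1.91, and the innermost tRNA genes -2.32. Medians in place of means gave a distance between centromeres of 0.55 in wt OFF. Averaged over arrays, the low run at 2-fold was 12.4 kb at I and 17.5 kb at II, over 9 probes 38.985 kb at III, and at 4-fold 10.4, 9.06 and 10.1 kb. Probes that rose with tethering numbered 16 without detrending, 113 with equal spread, 0 with normexp or with the term alone, 5 among probes without suffix, 3 at 1.5-fold in both pairs and 16 in the pair without wt OFF. Those that fell numbered 2 with outlier spots kept, 6 in the pair without wt OFF and 0 with normexp, equal spread, the term alone, no suffix and both pairs. Probes that rose with genotype numbered 0 with normexp or the term alone and 3 without suffix, and 13 fell in the pair without wt OFF. Under normexp the tethering effects at 1094400, 1094700, 1105200 and 1105500 of centromere III became -0.29, -0.18, -0.0805 and -0.0245. Besides these, all 11 effects of single probes called with the smallest adjusted p missed the threshold with the term alone, 7 with normexp and 1 with equal spread. Except where stated, the cause of these shifts was not tested.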
